A study of Homo sapiens with 8 samples.

Results

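The 9 genes described here encode SNARE proteins of exocytosis and the SM proteins that act with them. They are the SNAP-25 family genes SNAP25, SNAP23 and SNAP29, the syntaxins STX3 and STX4, the Sec1/Munc18 genes STXBP2 and STXBP3, and the vesicle SNAREs VAMP3 and VAMP7. They were taken by name from 8961 genes measured on the arrays, and all 23 probe sets that the platform annotation assigns to one of them alone were examined. A probe set was counted as measured when its signal was 500 or more on at least 1 of 8 arrays, which left 18 probe sets and every one of the 9 genes. The genes had been picked with their siIGF2R and siCtrl signals in view, so their levels and changes are given as descriptions with no test.

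A SNARE complex forms when a syntaxin and a SNAP-25 family protein on the target membrane zip together with a VAMP on the vesicle, which pulls both membranes into contact and fuses them. SM proteins clasp the syntaxin or the assembling bundle, and NSF with its SNAP adaptors takes the spent complexes apart for reuse. SNAP25 is best known from neurons and endocrine cells, where it serves calcium-triggered release, whereas SNAP23 is the broadly expressed family member of epithelial and other non-neuronal cells.

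IGF2R, the cation-independent mannose 6-phosphate receptor, carries newly made acid hydrolases from the Golgi apparatus towards lysosomes, and the study asked which genes change when it is knocked down in cervical cancer cells. BOKU and SKG-I, human cervical cancer cell lines, were lipofected with siRNA to IGF2R (siIGF2R) or with the control siRNA (siCtrl), and total RNA was taken 72 h later. Each of the 4 RNA samples was hybridised to a pair of Affymetrix U133 Plus 2.0 arrays, so the 2 arrays of a group were technical repeats and the 2 lines were the only biological replicates. Every group was thus 1 transfected culture of 1 established line, knockdown was transient, and which of the study's IGF2R siRNAs was used on the arrays was not given in the sources used here. Values are MAS5 signals, the brightness of a probe set on a linear scale after every array had been scaled to the same trimmed mean. A change is the mean log2 signal of the siIGF2R arrays minus that of the siCtrl arrays within a line. Its technical SE comes from the spread of the array pairs and leaves out any spread between cultures. Signals of different probe sets cannot be set against each other, and a bulk signal does not separate fewer expressing cells from less RNA per cell.

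The knockdown was visible on both IGF2R probe sets. Probe set 201393_s_at read 7288 and 6710 in BOKU with siCtrl against 641 and 645 with siIGF2R, which was 10.9-fold lower, and 4120 and 3838 in SKG-I against 257 and 295, which was 14.5-fold lower. The median change over all measured probe sets was 0.03 in BOKU and -0.0027 in SKG-I on the log2 scale, and array medians ran from 65.3 to 74.8. Of the 6 epithelial markers, 5 were measured, and their summed signal in BOKU was 41568 to 43759 with siCtrl and 31388 to 36675 with siIGF2R, and in SKG-I 37313 to 37722 and 28275 to 28880. Keratins KRT8, KRT18 and KRT19 carried most of it, while EPCAM was at 50.8 and 17.9 and CDH1 at 2.13 and 3.15 in BOKU with siCtrl. Such a marker sum, here and below, follows its brightest probe sets and does not measure cell type content. Among squamous markers KRT5 did not exceed 45.9 and DSG3 did not exceed 34.4 on any array, and SFN and DSC3 were measured. Of the 7 fibroblast and endothelial markers only COL1A1 was measured.

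SNAP25 was the only one of the 9 genes that was at least 2-fold higher with siIGF2R in both lines. Probe set 202508_s_at, the brightest of the gene, read 137 and 77.0 in BOKU with siCtrl and 815 and 728 with siIGF2R. In SKG-I it read 677 and 656 with siCtrl and 4006 and 4091 with siIGF2R. No siIGF2R array overlapped a siCtrl array of its line, and the change was 2.91 (technical SE 0.30) in BOKU and 2.60 in SKG-I on the log2 scale, or 7.50-fold and 6.07-fold. The BOKU value leaned on a control pair whose arrays lay far apart: it was 3.32 without BOKU siCtrl array 1 and 2.49 without array 2.

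The remaining SNAP25 probe sets had the same direction with smaller changes. Probe set 202507_s_at read 197 and 103, then 421 and 406 in BOKU, and 293 and 305, then 991 and 953 in SKG-I, so it changed by 1.54 and 1.70 (technical SE 0.33). Probe set 1556629_a_at read 43.1 and 52.2, then 225 and 211 in BOKU, and 335 and 343, then 954 and 1066 in SKG-I, with changes of 2.20 and 1.57 (technical SE 0.12). With signals under 100 set to 100 the BOKU change of 1556629_a_at was 1.12, and without BOKU siCtrl array 2 that of 202507_s_at was 1.07. Both of these probe sets reached 500 with siIGF2R alone, in SKG-I, and so passed the filter through the group in which they were high. All 3 SNAP25 probe sets were at least 2-fold higher in both lines, against none of the other 15 measured probe sets of the 9 genes. Over all 16517 measured probe sets the share was 3.15%, and over all genes by their brightest probe set it was 3.14%. No measured probe set of the 9 genes was 2-fold lower in both lines, against 2.28% of all probe sets and 2.31% of all genes. SNAP25 is also among the genes the study picked out on these same arrays, so the change is not independent evidence.

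**Figure D1:**
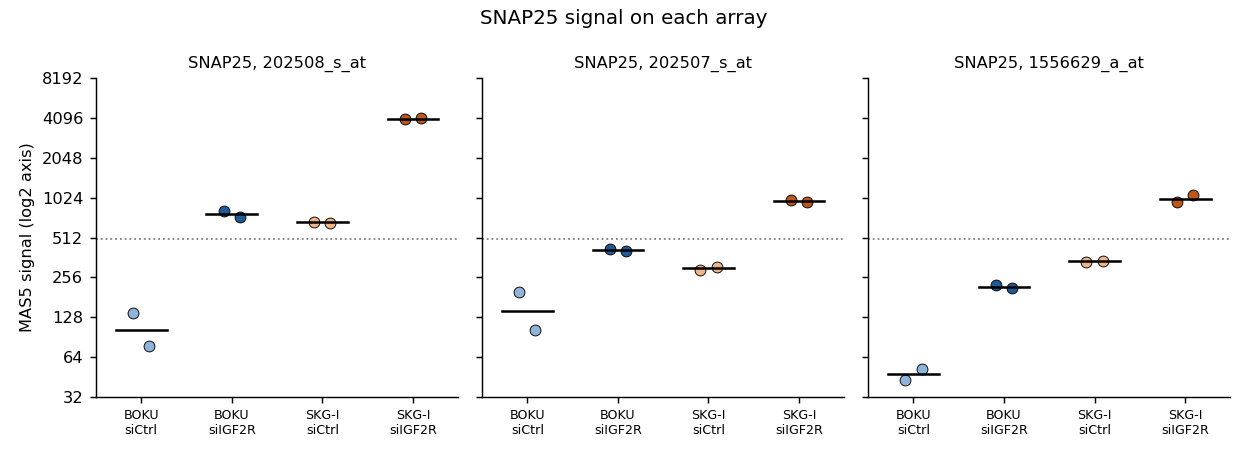
MAS5 signal (log2 axis) of the 3 SNAP25 probe sets on each of 8 arrays. Points are single arrays, black bars are the mean of the pair on the log2 scale, and the dotted line marks a signal of 500. On every probe set both siIGF2R arrays of a line lie above both siCtrl arrays, and SKG-I with siIGF2R is the highest group.

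The lines also started from different SNAP25 levels. With siCtrl the signal was higher in SKG-I on every probe set, by 6.48-fold on 202508_s_at, 2.10-fold on 202507_s_at and 7.16-fold on 1556629_a_at. The BOKU signals of 1556629_a_at lay below the array medians, and with signals under 100 set to 100 its difference (BOKU minus SKG-I) was -1.76 in place of -2.84 on the log2 scale. That of 202507_s_at was -1.07, or -0.60 without BOKU siCtrl array 2 and -1.54 without array 1. On 202508_s_at the order was SKG-I with siIGF2R, BOKU with siIGF2R, SKG-I with siCtrl and BOKU with siCtrl, and the array pairs of neighbouring groups did not overlap. Thus BOKU cells with siIGF2R came to a signal just above that of SKG-I cells with siCtrl on this probe set, 728 against 677 for the nearest arrays, whereas on 1556629_a_at they stayed below it, 225 against 335.

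SNAP23, the family member of non-neuronal cells, was lower with siIGF2R on all 4 of its measured probe sets in both lines. The brightest, 209130_at, read 7732 and 6723 with siCtrl and 5495 and 5046 with siIGF2R in BOKU, and 6482 and 6540 with siCtrl and 5566 and 5742 with siIGF2R in SKG-I. The pairs did not overlap, and the changes of -0.45 and -0.20 (technical SE 0.09) were 1.37-fold and 1.15-fold. Probe set 214544_s_at changed by -0.36 and -0.32, 209131_s_at by -0.68 and -0.55, and 229773_at, which reached 511 on a single array, by -0.59 and -0.58. SNAP23 and SNAP25 therefore moved in opposite directions in both lines. Of the SNAP23 probe sets 209130_at and 214544_s_at reached 500 on all 8 arrays, 209131_s_at on 7 and 229773_at on 1. SNAP25 202508_s_at did so on 6, and such counts do not rank the RNA levels of different genes.

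SNAP29, which pairs with STX17 and VAMP8 in the fusion of autophagosomes with lysosomes and also acts on other membranes, was lower on both measured probe sets. Probe set 218327_s_at read 1511 and 1600 with siCtrl and 1150 and 1031 with siIGF2R in BOKU. In SKG-I it read 792 and 885, then 745 and 677. The changes were -0.51 and -0.24 (technical SE 0.10), and the pairs were apart in both lines. Probe set 239084_at changed by -0.49 and -0.81 with a peak signal of 507, and 222597_at, which peaked at 370 and was not counted as measured, changed by -0.08 and -0.10 with overlapping pairs.

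STX3, the syntaxin of the apical membrane in epithelia, set the lines apart more than siIGF2R did. Probe set 209238_at read 7609 and 8624 with siCtrl and 4880 and 5576 with siIGF2R in BOKU. In SKG-I the same probe set read 882 and 809, then 619 and 616. With siCtrl it was 9.59-fold higher in BOKU, and with siIGF2R the difference was still 3.08 on the log2 scale. The siIGF2R arrays lay below the siCtrl arrays in both lines, by -0.63 and -0.45 (technical SE 0.10). Probe set 216985_s_at gave 1945 and 2029, then 1442 and 1503 in BOKU, and 212 and 176, then 116 and 132 in SKG-I, with changes of -0.43 and -0.64 and a 10.3-fold difference between the lines with siCtrl. The third probe set, 235483_at, peaked at 366 and was not counted as measured. It was higher in BOKU by 2.51 with siCtrl, but with siIGF2R its signal was higher by 0.36 in BOKU, which went against the other probe sets of STX3, and by 0.15 in SKG-I with overlapping pairs.

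STX4, the syntaxin of the basolateral membrane and of GLUT4 vesicle fusion, was lower with siIGF2R in BOKU and higher in SKG-I. Its single measured probe set, 203530_s_at, read 2516 and 3392 with siCtrl and 1904 and 2360 with siIGF2R in BOKU, a change of -0.46. In SKG-I it read 1016 and 1221, then 1310 and 1243, a change of 0.20. The technical SE of 0.21 was as large as the SKG-I change, although no arrays overlapped. With siCtrl STX4 was 2.62-fold higher in BOKU. Its dim probe set 229395_at peaked at 258 and its pairs overlapped in both lines. There the change was 0.22 in BOKU and -0.64 in SKG-I, against the direction of 203530_s_at in each line.

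Of the SM protein genes, STXBP3 moved one way in both lines and STXBP2 did not. STXBP3 (Munc18c), the partner of STX4, was the only gene beside SNAP25 whose brightest probe set was higher with siIGF2R on every array of both lines. Probe set 203310_at read 2659 and 2674, then 3290 and 2835 in BOKU, and 3518 and 3351, then 4322 and 4471 in SKG-I. The changes of 0.20 and 0.36 (technical SE 0.08) were 1.15-fold and 1.28-fold. Its dim probe set 1560486_at, with a peak of 257, changed by 0.45 and 0.43, with overlapping pairs in SKG-I.

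STXBP2 (Munc18b), the partner of STX3, was near the limit of what was counted as measured. Probe set 209367_at read 309 and 294 with siCtrl and 543 and 378 with siIGF2R in BOKU, so a single siIGF2R array carried it past 500. In SKG-I it read 282 and 343, then 248 and 266. It was higher by 0.59 in BOKU and lower in SKG-I, at -0.28 (technical SE 0.22), and the lines did not differ with siCtrl beyond the spread of the arrays, whose ranges overlapped. The second probe set, 1570420_at, peaked at 108 and was not counted as measured. It changed by -0.15 in BOKU with overlapping pairs and by 2.05 in SKG-I with pairs apart. In each line that went against the direction of 209367_at.

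The stretches before the start sites of one gene of each direction are shown because both lie outside the annotated gene body. SNAP29 was lower and STXBP3 higher with siIGF2R in both lines. RefSeq promoter entries on GRCh38.p14 were matched for 8 of the 9 genes, and SNAP25 had none in the table used. The windows of SNAP23 and STX3 lie inside the annotated span of their own gene and are not printed. Capitals mark matches, on either strand, to a CRE (TGACGTCA), to its shorter core (TGACG, which also lies within every CRE), to an E-box (CACGTG) and to a GC box (GGGCGG).
SNAP29, chr22:20858757-20859006, plus strand: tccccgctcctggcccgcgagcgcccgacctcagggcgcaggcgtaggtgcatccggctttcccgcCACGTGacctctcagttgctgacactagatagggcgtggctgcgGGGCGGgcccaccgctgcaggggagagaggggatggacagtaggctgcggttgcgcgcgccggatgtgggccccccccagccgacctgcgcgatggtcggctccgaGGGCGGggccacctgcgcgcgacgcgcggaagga
STXBP3, chr1:108746424-108746673, plus strand: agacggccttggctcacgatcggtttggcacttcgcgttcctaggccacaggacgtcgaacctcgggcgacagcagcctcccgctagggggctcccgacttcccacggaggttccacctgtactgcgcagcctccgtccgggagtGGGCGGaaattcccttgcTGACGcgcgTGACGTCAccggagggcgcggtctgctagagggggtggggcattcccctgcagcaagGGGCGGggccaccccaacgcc

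The SNAP29 stretch held 1 E-box and 2 GC boxes, and the STXBP3 stretch held 1 CRE, 3 core matches including those of the CRE, and 2 GC boxes. Of 35116 such stretches of 250 bases in the table, 1.65% held a CRE, 21.2% a core, 6.34% an E-box and 42.6% a GC box. No other matched entry of the 9 genes held a full CRE. Every entry of STX4, STXBP2, VAMP3 and VAMP7 held between 1 and 3 cores, and SNAP23 held none of the 4 motifs. A match is a description of the letters and not of binding.

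The vesicle SNAREs changed little, by at most 0.36 on any of their 4 measured probe sets. VAMP3 (cellubrevin), which marks recycling endosomes, read 10756 and 11066, then 9815 and 9901 in BOKU, and 6495 and 7245, then 7958 and 7334 in SKG-I on probe set 201336_at. That was -0.15 in BOKU and 0.16 in SKG-I (technical SE 0.07). Its other probe sets were lower in both lines, 211749_s_at by -0.26 and -0.16 and 201337_s_at by -0.24 and -0.36, so the direction of VAMP3 in SKG-I depended on the probe set. VAMP7, the longin-domain SNARE of late endosomes and lysosomes that also serves their exocytosis, read 13169 and 12899, then 12260 and 12725 in BOKU on 202829_s_at. In SKG-I it read 6171 and 6286, then 5873 and 6415. Its changes were -0.06 and -0.02 (technical SE 0.05), and its SKG-I pairs overlapped. With siCtrl VAMP7 was 2.09-fold and VAMP3 1.59-fold higher in BOKU.

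**Figure D2:**
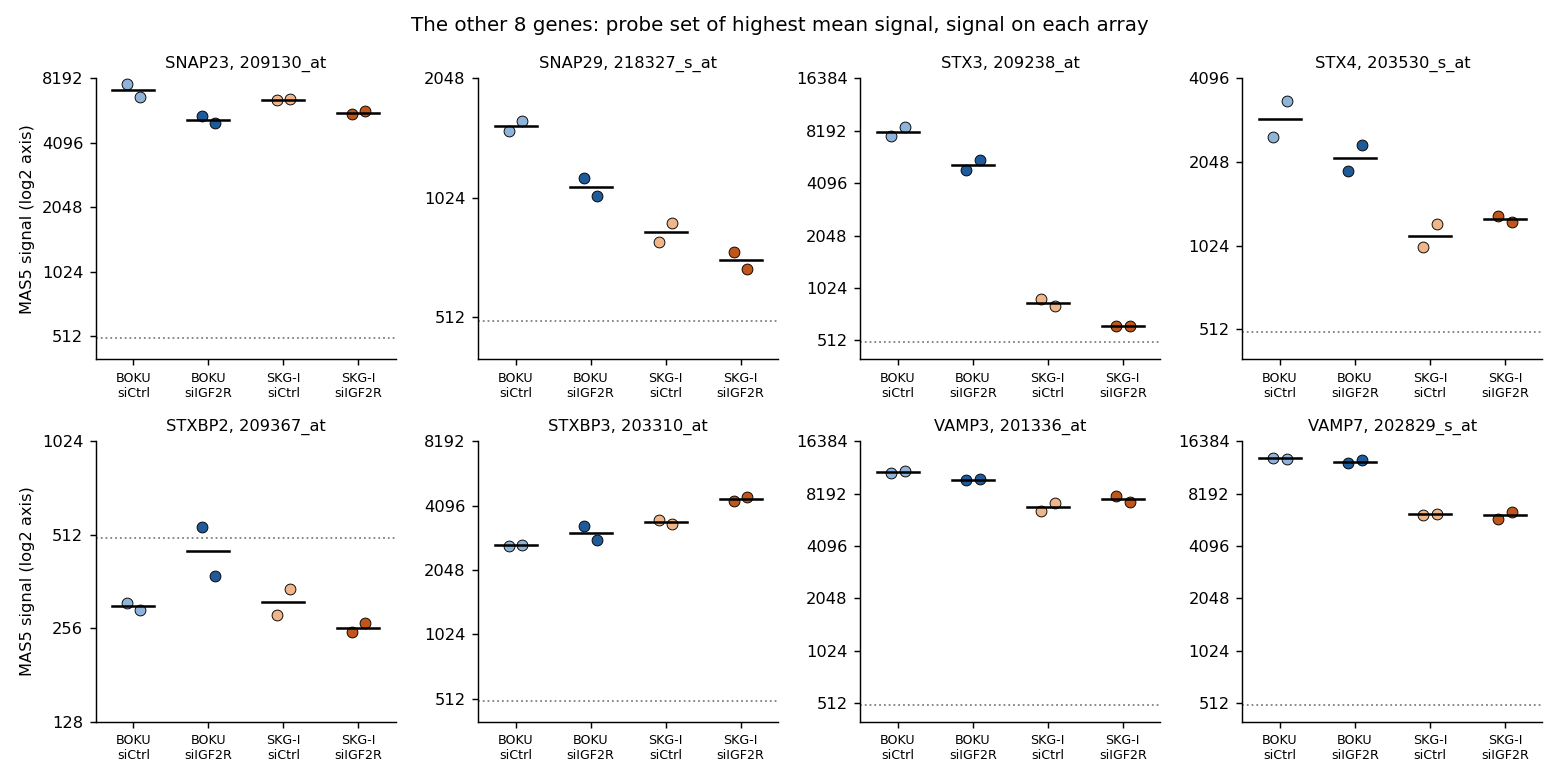
MAS5 signal (log2 axis, its range set for each panel) of the other 8 genes on each of 8 arrays, by each gene's probe set of highest mean signal. Points are single arrays, black bars are the mean of the pair on the log2 scale, and the dotted line marks a signal of 500. STX3 separates the lines by 9.59-fold with siCtrl, SNAP23, SNAP29 and STX3 lie lower with siIGF2R in both lines, and STXBP2 passes 500 on 1 array.

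By the brightest probe set of each gene, both siIGF2R arrays lay above both siCtrl arrays in both lines for SNAP25 and STXBP3, or 2 of 9 genes, against 26.4% of all 8961 genes. They lay below in both lines for SNAP23, SNAP29 and STX3, or 3 of 9, against 25.2% of all genes. STX4, STXBP2 and VAMP3 were apart in opposite directions in the lines, or 3 of 9, against 13.3%. Counted by probe set, 4 of 18 were above in both lines, against 26.4% of all probe sets, 10 of 18 were below, against 23.6%, and 3 of 18 were opposite, against 13.0%. Several probe sets of one gene read the same RNA, so these 18 are not independent. The median change of the 9 genes was -0.15 in BOKU and -0.02 in SKG-I, beside 0.03 and -0.03 over all genes. These counts rest on the contrast with which the genes were picked and are printed beside the share over all features only for scale. Just inside the limit of 500 lay SNAP29 239084_at at 507, SNAP23 229773_at at 511 and STXBP2 209367_at at 543, and just outside lay SNAP29 222597_at at 370 and STX3 235483_at at 366.

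**Figure D3:**
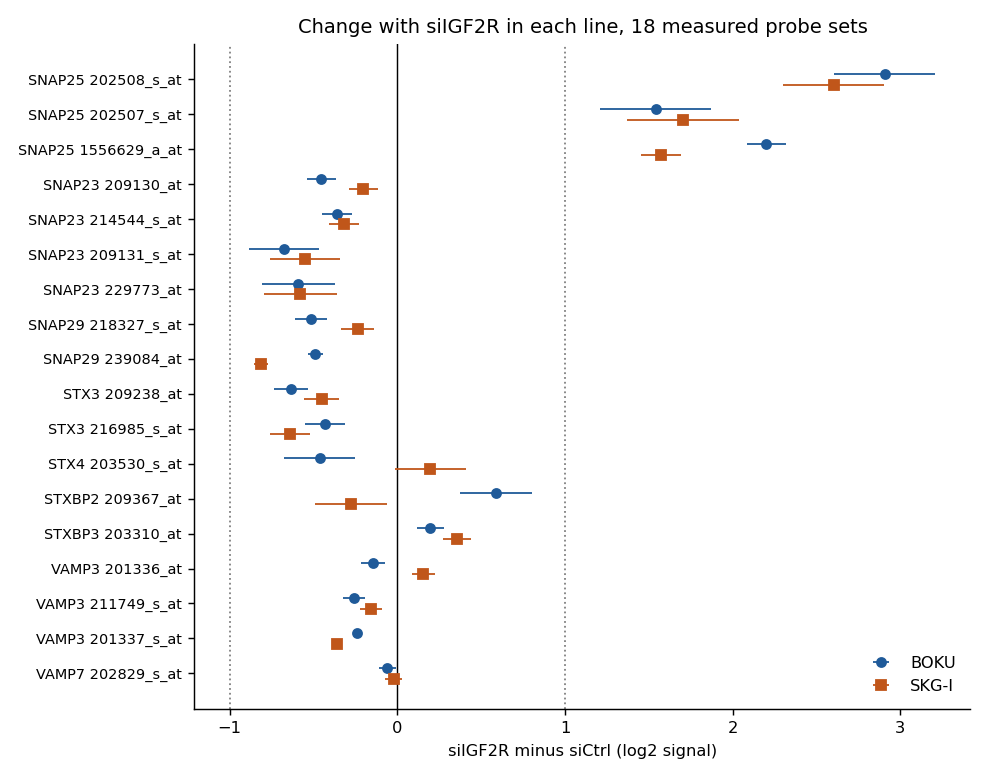
Change with siIGF2R (mean log2 signal of siIGF2R arrays minus siCtrl arrays) for the 18 measured probe sets, with circles for BOKU and squares for SKG-I. Horizontal bars are the technical SE from the array pairs and dotted lines mark 2-fold. The 3 SNAP25 probe sets lie past 2-fold higher in both lines, and every other probe set lies within 2-fold in both.

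The lines were also compared with siCtrl alone, each gene by its brightest probe set. At least 2-fold higher in BOKU were STX3, STX4 and VAMP7, or 3 of 9, against 15.6% of all genes, and SNAP25 alone was 2-fold higher in SKG-I, against 18.9%. Both BOKU arrays lay above both SKG-I arrays for SNAP23, SNAP29, STX3, STX4, VAMP3 and VAMP7, against 40.7% of all genes, and both SKG-I arrays lay above for SNAP25 and STXBP3, against 47.7%. VAMP7 lay close to that limit, and with quantile normalization its difference was 0.95 on the log2 scale, which left 2 of 9. The median difference between the lines (BOKU minus SKG-I) was 0.67 for the 9 genes and -0.08 over all genes on the log2 scale. Counted by probe set, 4 of 18 were at least 2-fold higher in BOKU, against 16.4% of all probe sets, and 3 of 18 in SKG-I, against 18.6%. The BOKU arrays lay above on 11 of 18, against 42.0%, and the SKG-I arrays on 6, against 45.9%. With 1 RNA sample of each line there was no replicate of this comparison. SNAP23 had almost the same signal in both lines on 209130_at, with a difference of 0.15.

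**Figure D4:**
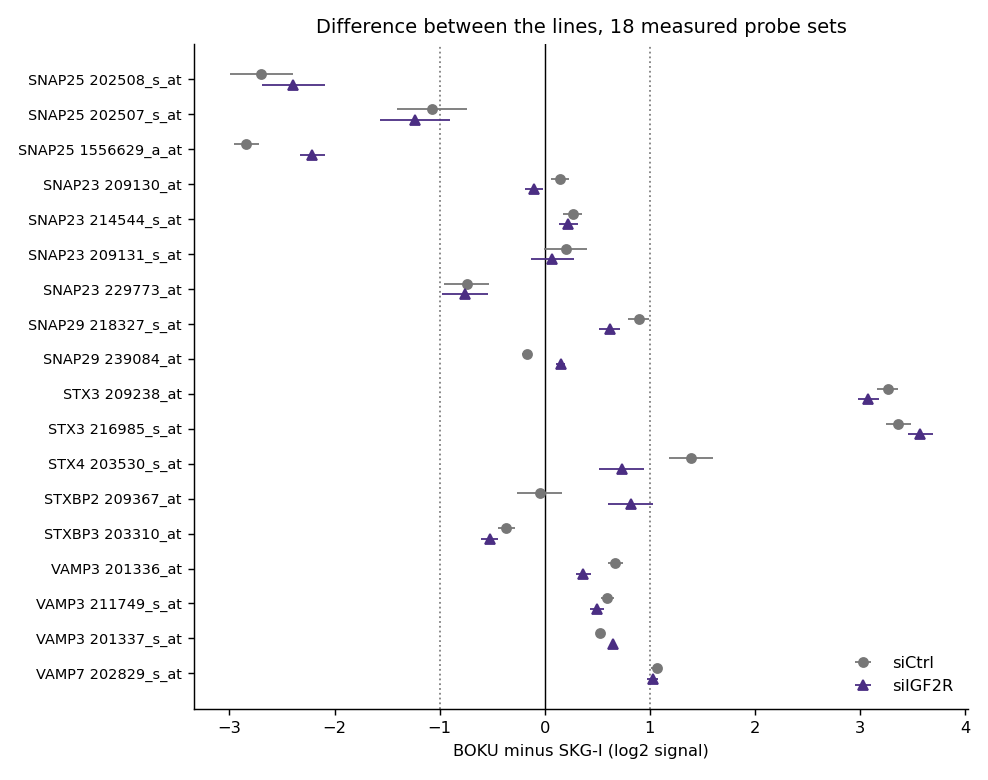
Difference between the lines (BOKU minus SKG-I, log2 signal) with siCtrl (circles) and with siIGF2R (triangles) for the 18 measured probe sets. Bars are the technical SE and dotted lines mark 2-fold. Both STX3 probe sets lie past 3 to the right and all SNAP25 probe sets past 1 to the left, with either siRNA.

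Genes whose pattern over the 4 RNA samples was nearest to that of SNAP25 were searched among all measured genes by Euclidean distance of centred log2 signals. The 5 nearest were KCNG1, a modifier subunit of voltage-gated potassium channels, at 0.56, AKAP12, a scaffold of protein kinase A, at 0.73, ANO2, a calcium-activated chloride channel, at 0.85, ADCY3, an adenylate cyclase, at 0.93, and EMP2, a tetraspan membrane protein, at 0.96. KCNG1 read 15.6 and 12.3, then 94.6 and 159 in BOKU, and 135 and 147, then 852 and 862 in SKG-I, so its BOKU signals were all dim. AKAP12 read 89.3 and 66.7, then 353 and 339 in BOKU, and 547 and 577, then 3131 and 3454 in SKG-I. Like SNAP25, each was higher with siIGF2R in both lines, by 1.74 to 3.21 in BOKU and 1.32 to 2.61 in SKG-I, and higher in SKG-I than in BOKU with siCtrl. The search picked these genes for that pattern, so the shared directions follow from the search and are no separate evidence. KCNG1, ANO2 and ADCY3 reached the limit for a measured probe set only in SKG-I with siIGF2R. The likeness rests on 4 points that share the same arrays and scaling.

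Other SNARE and exocytosis genes were followed in 6 lists, 1 of them of endosomal and lysosomal SNAREs. Of the 96 listed genes 44 were measured. These genes were tested over both lines with limma, cell line as a block, and Benjamini-Hochberg adjustment over all 16517 probe sets. By the brightest probe set, 2 of 44 rose (STX2 and NAPG), 1 fell (VAMP4) and 41 did not pass, beside 2.59% of all genes that rose and 2.35% that fell. None of the 3 passed without BOKU siCtrl array 2, with no variance trend or when the probe sets of a gene were averaged. NAPG also missed with quantile normalization (limma adjusted p = 0.055) and with median scaling (limma adjusted p = 0.053). Without adjustment 4 were higher and 10 lower at p under 0.05. The median change of the 44 genes was -0.23 in BOKU and -0.12 in SKG-I.

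The list of other SNAREs and SM proteins of the plasma membrane, which also held VAMP4, had 7 of 16 genes measured. STX2, a plasma membrane syntaxin also known as epimorphin, read 440 and 324, then 950 and 910 in BOKU, and 405 and 453, then 1164 and 1359 in SKG-I. It rose by 1.43 (SE 0.23, limma adjusted p = 0.036) and with siCtrl it differed between the lines by -0.18. No siCtrl array of STX2 reached the limit for a measured probe set. STX2 thus passed the filter only through siIGF2R, the group in which it was high. With no filter its limma adjusted p was 0.025. VAMP4, a SNARE of the trans-Golgi network and endosomes, read 1175 and 1165, then 511 and 438 in BOKU, and 478 and 495, then 143 and 229 in SKG-I on 213480_at. There it fell by 1.37 (SE 0.25, limma adjusted p = 0.046), whereas its other probe set 211760_s_at changed by -0.45 (limma adjusted p = 0.526). VAMP8, the R-SNARE of secretory granules and late endosomes, was 35.7-fold higher in SKG-I than in BOKU with siCtrl, at 6394 and 6368 against 187 and 170. Its change of -0.47 did not pass (limma adjusted p = 0.240). The list's medians were 0.03 in BOKU and 0.03 in SKG-I.

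All 4 genes of SNARE disassembly were measured. NAPG (gamma-SNAP), an adaptor of the NSF ATPase, read 996 and 1076, then 2066 and 2161 in BOKU, and 827 and 847, then 1759 and 1754 in SKG-I. It rose by 1.05 (SE 0.19, limma adjusted p = 0.047). NAPA (alpha-SNAP) changed by -0.61 (limma adjusted p = 0.157) and NSF itself by -0.20 (limma adjusted p = 0.482). The list's medians were -0.22 and -0.01.

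Of 42 calcium sensors, priming factors and complexins only 8 were measured and none passed, with 1 higher and 1 lower at an unadjusted p under 0.05 in limma. The largest changes were those of SYT1, the calcium sensor of fast neurotransmitter release, at -0.97 (limma adjusted p = 0.132), ESYT1, a tether of endoplasmic reticulum to plasma membrane, at 0.74 (limma adjusted p = 0.095), and SYT13 at -0.43 (limma adjusted p = 0.707). SYT1 changed by -1.30 in BOKU and -0.64 in SKG-I on that probe set, 203999_at. On its other measured probe set, 203998_s_at, the changes were -1.39 and 0.23 (limma adjusted p = 0.589 over both). The direction of SYT1 in SKG-I thus depended on the probe set. SYT1 was a gene of BOKU cells, at 2459 and 2359 with siCtrl against 93.8 and 80.4 in SKG-I, a 27.7-fold difference. SYT13 read 604 and 610 in SKG-I with siCtrl, whereas both of its BOKU siCtrl arrays lay below the array medians. The line that had the lower SNAP25 signal thus had the higher SYT1 signal.

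The list of the exocyst, the tether that brings secretory vesicles to the plasma membrane, also held the GTPase genes RALA and RALB. Of its 13 genes 11 were measured and none passed, with 0 higher and 1 lower at an unadjusted p under 0.05 in limma. EXOC6B changed by -1.13 (limma adjusted p = 0.087), EXOC2 by -0.44 and EXOC1 by -0.39. The other measured EXOC2 probe set, 219349_s_at, went the other way, at 0.27 (limma adjusted p = 0.573). Of 13 secretory RAB GTPases 7 were measured and none passed by the brightest probe set, with 1 higher and 3 lower unadjusted. RAB8B changed by 0.83 (limma adjusted p = 0.092), RAB11A by -0.57 and RAB8A by -0.49. RAB27A, which docks granules and exosome-forming endosomes at the plasma membrane, was named after its values were seen. Its brightest probe set, 210951_x_at, changed by 0.29 (limma adjusted p = 0.375), but 3 of its 5 measured probe sets rose, 209515_s_at by 1.62, 235766_x_at by 2.34 and 222294_s_at by 2.48 (limma adjusted p = 0.033, 0.023 and 0.027).

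Of 8 endosomal and lysosomal SNAREs 7 were measured and none passed, with 0 higher and 3 lower at an unadjusted p under 0.05 in limma. STX8, a late endosomal SNARE, changed by -0.85 (limma adjusted p = 0.087), STX17, the autophagosomal partner of SNAP29, by -0.53 and STX12 by -0.52. The list's medians were -0.41 in BOKU and -0.21 in SKG-I.

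**Figure D5:**
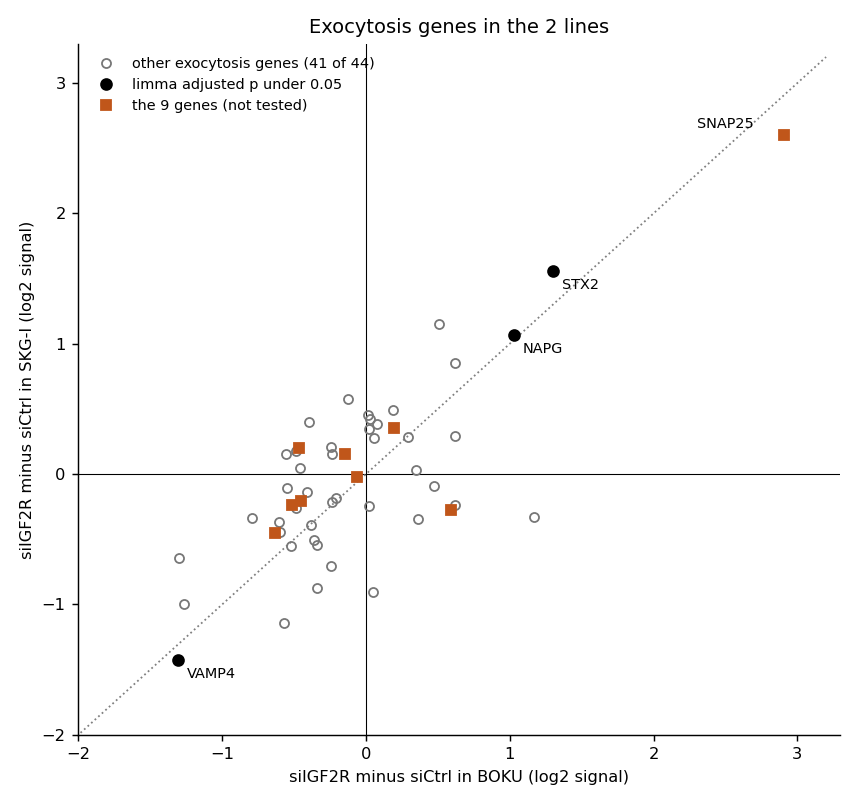
Change with siIGF2R in BOKU (x axis) and SKG-I (y axis), log2 signal. Circles are the 44 measured genes of the 6 lists, endosomal and lysosomal SNAREs included, and squares are the 9 genes described here. Each gene stands by its brightest probe set. Filled circles passed limma's adjusted p and the dotted line marks equal change. SNAP25 lies at 2.91 and 2.60, and STX2, NAPG and VAMP4 lie near the line of equal change.

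Since SNAP25 is a neuronal and endocrine gene, markers of neuroendocrine cells were read beside it. Of 18 markers 5 were measured. Their summed signal in BOKU was 25412 to 27002 with siCtrl and 22078 to 27537 with siIGF2R, and in SKG-I 7338 to 7382 and 11414 to 12603. UCHL1 and TUBB3 carried most of it in BOKU. The defining markers SYP and CHGA did not exceed 20.3 and 28.3 on any array, and CHGB did not exceed 117. ENO2, neuronal enolase, was the only one of these genes that passed. It read 177 and 170, then 713 and 607 in BOKU, and 171 and 158, then 1394 and 1382 in SKG-I, and rose by 2.50 (SE 0.36, limma adjusted p = 0.031). ENO2 too passed the filter only through siIGF2R, the group in which it was high. With no filter its limma adjusted p was 0.015. SCG2 changed by -1.39 in BOKU and 0.38 in SKG-I, and UCHL1, at 14586 and 15426 with siCtrl in BOKU, was at 34.3 and 62.6 in SKG-I.

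No gene of the other cell type lists passed, with 2 epithelial markers and 1 squamous marker lower at an unadjusted p under 0.05 in limma. KRT19, a simple epithelial keratin, changed by -0.16 in BOKU and -1.87 in SKG-I (limma adjusted p = 0.164 over both), KRT18 by -0.57 and -0.16 (limma adjusted p = 0.181), and CDH1 by -1.34 and 2.01 (limma adjusted p = 0.918), where its BOKU signals lay near the lowest the arrays give. SFN changed by -0.57 (limma adjusted p = 0.084) and DSC3 by -0.35 (limma adjusted p = 0.435). COL1A1, on its only measured probe set, changed by -0.20 (limma adjusted p = 0.522). The part of any of these shifts in the signals of the SNARE genes was not tested.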

How the data were processed

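Total RNA of BOKU and SKG-I cells, 4 samples on 8 arrays, was measured on Affymetrix U133 Plus 2.0 arrays. The authors deposited MAS5 signal intensities on a linear scale, and in the table each array's 2% trimmed mean was 500.06 to 500.07, with a lowest signal of 1. Signal intensity says nothing of depth, and the number of lines and cultures limits the precision. Duplicate arrays were averaged on the log2 scale, since the study states that one RNA was run in duplicate. The SD of the difference between duplicates ran from 0.269 to 0.349 (log2). Of 54675 probe sets 16517 (30.2%) had 500 or more on at least 1 array. The study's methods give the same number, but for arrays scaled to a different mean, so the limit used here is not the same level. The 62 control probe sets were left out. The platform annotation gave 14544 of those kept 1 gene, 765 several and 1208 none, and a gene stood by its probe set of highest mean log2 signal.

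Linear models with the cell line as a block were fitted over all kept probe sets (R 4.3.3, limma 3.58.1, lmFit and eBayes with a variance trend, 2-sided, Benjamini-Hochberg, call at 0.05). Simulated data of the same size had 200 changed probe sets in each of 20 runs. Of those changed by 1, 2 and 3 (log2), 9.55%, 69.0% and 88.6% were called. Beside these calls, 13.8 unchanged probe sets were called a run. The 9 genes were chosen on this contrast and got no test. The 9 genes and the gene lists were chosen with earlier results of these data known. Genes named are the 9, IGF2R, the called genes and up to 3 of largest mean change in each list, and the 5 nearest to SNAP25. Others named for contrast or as cell markers were chosen after their values were seen. Alternatives covered scaling, a floor of 100, an added 64, the filter, the averaging of arrays and of probe sets, the variance trend, separate arrays with and without a replicate block, the fold limit, the methods' t-test and each array left out, and 1 further scaling chosen after seeing the data. Promoter stretches are the 250 bases before the start in RefSeq entries on GRCh38.p14.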

Additional observations from a re-analysis of the deposited data

Results flagged for a closer look

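For 3 genes all siIGF2R arrays of one line moved one way and all those of the other line the opposite way, and this difference between the lines was not tested. STX4 203530_s_at changed by -0.46 in BOKU and 0.20 in SKG-I, a difference of -0.66 (technical SE 0.30). STXBP2 209367_at changed by 0.59 in BOKU and -0.28 in SKG-I, a difference of 0.87 (technical SE 0.30), with 1 of 8 arrays at 500 or more. VAMP3 201336_at changed by -0.15 in BOKU and 0.16 in SKG-I, a difference of -0.30 (technical SE 0.10), and its other 2 probe sets were lower in both lines. The dim second probe sets of STX4 and STXBP2, not counted as measured, went the other way in each line. Over all genes 13.3% had arrays apart in opposite directions.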

How the results depend on the processing

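Of the 9 genes, SNAP25 alone stayed at least 2-fold higher in both lines under all alternatives that give this count. Its change over the alternatives was 2.22 to 3.32 in BOKU and 1.96 to 2.65 in SKG-I. The lowest values, 2.22 and 1.96, came from averaging the probe sets of the gene. On 202508_s_at itself the lowest changes were 2.31 in BOKU and 2.49 in SKG-I, with 64 added. The changes that turned were small. VAMP3 in SKG-I became -0.12 when probe sets of a gene were averaged, VAMP7 in BOKU became 0.082 with quantile normalization and 0.050 after median-centring within signal classes (a scaling chosen after seeing the data), and SNAP23 between the lines with siCtrl became -0.033 with averaged probe sets. STXBP2 dropped out when 500 or more was asked of at least 2 arrays. The cause of these shifts was not tested.

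Over all probe sets limma called 363 higher and 346 lower. With quantile normalization 237 were higher, with 64 added 655 and 575, and with no variance trend 0 and 0, where 2137 and 1728 had an unadjusted p under 0.05. With arrays as separate samples, which treats technical repeats as replicates, 4269 and 3833 were called, and with the replicate block added 3992 and 3609. Leaving out 1 array gave 216 to 838 higher and 233 to 759 lower, the extremes being without BOKU siCtrl array 2 and without BOKU siCtrl array 1. Without BOKU siIGF2R array 2 the counts were 786 and 665.

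At least 2-fold in both lines were 520 higher and 377 lower, with no filter 1882 and 1633, at 1.5-fold 1431 and 1162, and 427 and 329 with the methods' t-test added (125 and 105 after Benjamini-Hochberg). Between the lines with siCtrl 2705 were higher in BOKU and 3067 in SKG-I, with no filter 10563 and 10485, and at 1.5-fold 4283 and 4822. At 1.5-fold 5 of the 9 genes were higher in BOKU in place of 3, and with quantile normalization 2, since VAMP7 fell short at 0.95 (log2).

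Of the 44 measured genes of the 6 lists, 2 were called higher and 1 lower. Higher were 1 with quantile normalization, median scaling or arithmetic means, and 0 with the mean of probe sets or no trend, where the count lower was 0 as well. Separate arrays gave 7 higher and 18 lower, with or without the replicate block. Leaving out 1 array gave 0 to 2 higher and 0 to 1 lower, with none of either without BOKU siCtrl array 2, and 1 higher and 0 lower without SKG-I siIGF2R array 1. The adjusted p of STX2 ran up to 0.103, that of VAMP4 to 0.151, that of NAPG to 0.115 and that of ENO2 to 0.103 over the alternatives. These calls are thus near the threshold.

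The numbers of the arrays name technical repeats and pair nothing. The 2 lines are the only replicates, 1 culture stands for each group, and dim probe sets such as SNAP25 in control BOKU cells depend most on the scaling and on single arrays.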
